A study of Mus musculus with 12 samples.

Results

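Striatal libraries taken at day 7 after ischemic stroke were set against libraries taken at day 14, using 8 of the 12 libraries of the series. The 4 day 7 libraries came from mice labelled cGAS-KO (2 libraries, 7d_cGAS-KO) and STING-KO (2 libraries, 7d_STING-KO), and the 4 day 14 libraries from mice labelled WT (2 libraries, 14d_WT) and cGAS-KO (2 libraries, 14d_cGAS-KO). The other 4 libraries (7d_WT and 14d_STING-KO) were left out by the rule that formed the comparison, because their immune transcripts were low. Measured values therefore chose the groups. For immune gene lists the pooled values below are a description without a test. Tested calls for immune genes come only from the cGAS-KO libraries at day 7 against the cGAS-KO libraries at day 14, a pair that the labels alone define. Pooled counts of the other lists include any members that also stand in an immune list. For those members the pooled call is a description only.

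All mice were of the C57BL/6J strain and all had an ischemic stroke. The WT libraries carry no knockout label, and the labels attribute both knockout lines to CRISPR-Cas9. The number of founder lines, the age of the mice, the stroke model and the side of the brain sampled are not given in the sources used here, and no uninjured group was analysed here. Time and genotype are partly confounded: cGAS-KO libraries stand in both arms, STING-KO libraries only at day 7 and WT libraries only at day 14. The pooled difference is the mean of a comparison within cGAS-KO and a comparison of 7d_STING-KO with 14d_WT, and in the latter time and genotype cannot be told apart. The labels do not say whether the libraries of a group came from separate mice, so each p reflects only how far these libraries vary, which may be technical.

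After an ischemic stroke, microglia and infiltrating monocytes clear dead cells and myelin, and they take up large amounts of lipid, which is broken down in lysosomes. In the same weeks, fibroblasts and pericytes lay down collagen, astrocytes around the lesion become reactive, new vessels form, lymphocytes enter, and neuroblasts born in the subventricular zone move toward the injured striatum. cGAS is an enzyme that senses DNA in the cytosol and makes the messenger cGAMP. STING, encoded by Tmem173, is the receptor of cGAMP and switches on type I interferons, whose target genes are called interferon-stimulated genes.

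Library totals of the 8 libraries lay within the series' range of 15956242 to 22126213 counts, and 19822 genes were tested. CPM are counts per 1000000 of the TMM-scaled library total. They are not scaled to gene length and were compared only within a gene. Log2 differences are day 7 minus day 14 ± SE, with edgeR's quasi-likelihood p adjusted by the Benjamini-Hochberg method over all genes tested. Values of single genes follow 1 order throughout: at day 7 cGAS-KO replicates 1 and 2 and then STING-KO replicates 1 and 2, and at day 14 WT replicates 1 and 2 and then cGAS-KO replicates 1 and 2. Cgas (mm10, chromosome 9, 78430526 to 78443237, minus strand) measured 5.55, 5.66, 11.2 and 12.6 CPM at day 7 and 12.6, 7.68, 4.09 and 6.15 CPM at day 14. The cGAS-KO libraries of both days were the 4 lowest, although transcript was still counted in them. Tmem173 measured 28.7, 30.3, 20.9 and 23.8 CPM at day 7 and 22.3, 20.8, 18.4 and 18.1 CPM at day 14, so the STING-KO libraries lay within the range of the others. A small edit can leave the transcript level as it is, so these counts do not check that label. Because these are bulk libraries, fewer cells of a type and less RNA per cell cannot be told apart in any result below.

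The main axis of variation among the 8 libraries separated day 7 from day 14, groups that also differ in part in genotype and were chosen on measured values. The first principal component held 57.8% of their variance and placed the day 7 libraries at 51.2 to 75 and the day 14 libraries at -77 to -55.8. In the pooled comparison 4928 genes (24.9%) were higher at day 7 and 4443 genes (22.4%) were lower, with a median log2 change of -0.01 over all genes tested. Changes of at least 4-fold were called for 755 genes higher and 316 genes lower. In 22.6% of genes all 4 day 7 libraries lay above all 4 day 14 libraries, and in 18.6% all lay below.

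Within cGAS-KO, 6022 genes (30.4%) were called, 3368 (17%) higher at day 7 and 2654 (13.4%) lower. In the comparison of 7d_STING-KO with 14d_WT, which shares no library with it, 3479 genes (17.6%) were higher and 2891 (14.6%) lower. The pair of comparisons had 2270 rises and 1559 falls in common and 12 opposite calls. The shared rises were 67.4% of the cGAS-KO rises and 65.2% of the others, and the shared falls were 58.7% and 53.9%. The counts depended on single libraries. Without 7d_cGAS-KO replicate 1 the cGAS-KO counts were 1927 and 1041, and without 14d_cGAS-KO replicate 1 they were 2016 and 1407. In the other comparison they were 2163 and 1522 without 7d_STING-KO replicate 1, 2316 and 1587 without 7d_STING-KO replicate 2, and 1958 and 1663 without 14d_WT replicate 2. Across genes, which are not independent replicates, the log2 changes of the pair correlated with Pearson r = 0.643 and Spearman rho = 0.688. The test of the difference between the pair called 8 genes (0.0404%), while 2254 genes passed an unadjusted 0.05. Of the 8, 2 (0.0101%) had the more positive change in 7d_STING-KO against 14d_WT and 6 (0.0303%) the more negative one.

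**Figure D1:**
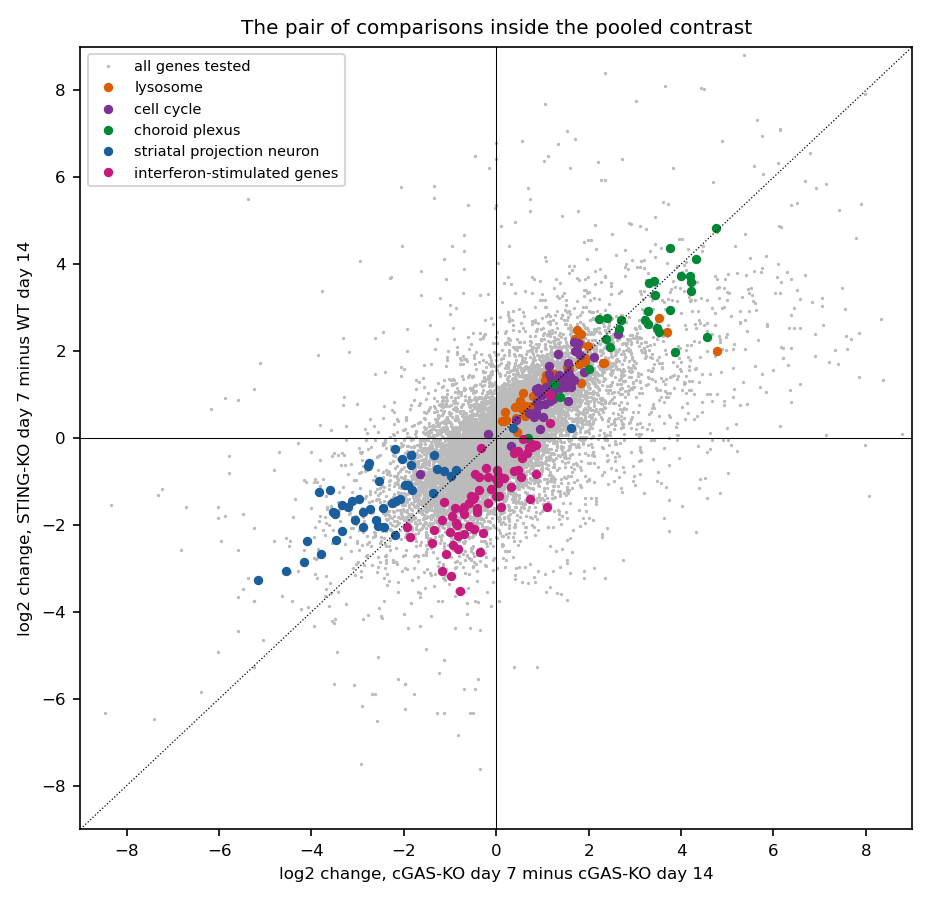
Log2 change (day 7 minus day 14) of each gene tested in the cGAS-KO comparison (x axis) and in the comparison of 7d_STING-KO with 14d_WT (y axis), with 5 gene lists in colour, a dotted line of equal change, and 5 genes outside the axes. Lysosome, cell cycle and choroid plexus genes lie in the upper right, striatal projection neuron genes in the lower left, and interferon-stimulated genes mostly below the dotted line.

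Most pooled calls were also made with the 2 left-out groups included, in a comparison that shares the 8 libraries. When all 3 day 7 groups were compared with all 3 day 14 groups, 10248 genes (51.7%) were called, and 4983 genes (25.1%) were higher and 5265 (26.6%) lower. Of the pooled rises 3762 were also called higher over all groups, and of the pooled falls 3758 were also called lower. The sign turned for 274 pooled calls, of which 18 rises and 13 falls were called the other way.

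The 10 largest rises were picked among protein-coding genes whose 8 libraries were fully apart and that were called the same way in both component comparisons. Cd36, a scavenger receptor for oxidised lipids, measured 60.1, 101, 291 and 188 CPM at day 7 and 2.57, 4.5, 1.6 and 1.32 CPM at day 14. F7, coagulation factor VII, measured 12.7, 14.6, 22.2 and 22.9 CPM at day 7 and 1.17, 0.384, 0.222 and 0.142 CPM at day 14, a pooled log2 difference of 5.52 ± 0.28, adjusted p = 1.81e-07. Mfap4, a microfibril-associated glycoprotein, measured 78.9, 55.7, 33.2 and 19.9 CPM at day 7 and 0.993, 1.87, 1.02 and 1.32 CPM at day 14, a difference of 5.01 ± 0.25, adjusted p = 2.11e-07. In these genes the lowest day 7 library stood far above the highest day 14 library. The selection required days without overlap and a call, so the gap and the p add no support.

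For 5 other genes of this set the levels are given without a fold: Col10a1, Mmp8, Arg1 and Fcna had no count in at least 1 of the 14d_cGAS-KO libraries, and Mmp13 was lowest there. At day 14 Mmp8, Arg1 and Mmp13 were highest in 14d_WT. Col10a1, the chain of collagen X, measured 38.5, 17.4, 501 and 101 CPM at day 7 and 0, 0, 0 and 0.0473 CPM at day 14, with the day 7 libraries spread over more than an order of magnitude. Mmp8, a collagenase best known from neutrophils, measured 10.6, 14.2, 11 and 14.9 CPM at day 7 and 1.69, 3.29, 0 and 0 CPM at day 14. Mmp13, collagenase 3, measured 2.47, 1.49, 54.7 and 23.6 CPM at day 7 and 0.117, 1.15, 0.089 and 0.0473 CPM at day 14, and was far higher in the 2 STING-KO libraries than in the cGAS-KO libraries at day 7. The other 2 varied less within day 7 than Col10a1 and Mmp13. Arg1, arginase 1 of alternatively activated macrophages, measured 4.04, 3.86, 7 and 13.7 CPM at day 7 and 1.81, 0.439, 0 and 0.0473 CPM at day 14. Fcna, ficolin A of the lectin complement pathway, measured 9.17, 4.48, 10.3 and 4.61 CPM at day 7 and 0.526, 0.384, 0.178 and 0 CPM at day 14. That the days did not overlap in these 5 genes was a condition of their selection.

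Cd5l, a secreted protein of tissue macrophages, measured 149, 324, 135 and 147 CPM at day 7 and 6.13, 13.8, 3.34 and 2.7 CPM at day 14, a cGAS-KO difference of 6.29 ± 0.50, adjusted p = 2.04e-05. Adamts12, a secreted metalloproteinase, measured 49.8, 42.6, 24.1 and 19 CPM at day 7 and 0.234, 4.88, 0.4 and 0.284 CPM at day 14, with 14d_WT replicate 2 well above the other day 14 libraries.

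The largest falls were picked in the same way. Gpr6, an orphan receptor of indirect-pathway striatal neurons, measured 0.181, 1.34, 0.402 and 2.28 CPM at day 7 and 17, 9.49, 21.9 and 35.5 CPM at day 14. Rxrg, the retinoid X receptor gamma of striatal neurons, measured 2.23, 4.22, 2.75 and 3.55 CPM at day 7 and 23.8, 21.7, 52.1 and 65.7 CPM at day 14, a pooled difference of -3.51 ± 0.18, adjusted p = 2.89e-07. Prokr2, a receptor for prokineticins that guides neuroblasts to the olfactory bulb, measured 0.483, 0.566, 1.66 and 0.636 CPM at day 7 and 13.2, 14.9, 14.9 and 11.5 CPM at day 14, a difference of -4.13 ± 0.26, adjusted p = 1.16e-06. In each of these genes the highest day 7 library lay well below the lowest day 14 library, and days without overlap were again a condition of selection. Sp8, a transcription factor of neuroblasts and interneurons, measured 0.483, 0.412, 0.344 and 0.741 CPM at day 7 and 7.07, 9.99, 11.2 and 5.68 CPM at day 14. The homeobox gene Vax1 of the ventral forebrain was at 0 to 0.689 CPM at day 7 and 4.03 to 5.87 CPM at day 14. Serpina9, Epyc and Olfr1393 belonged to the same set, with pooled differences of -3.80, -3.58 and -3.74. Dlx1 and Dlx2 are described with the neuroblast genes.

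**Figure D2:**
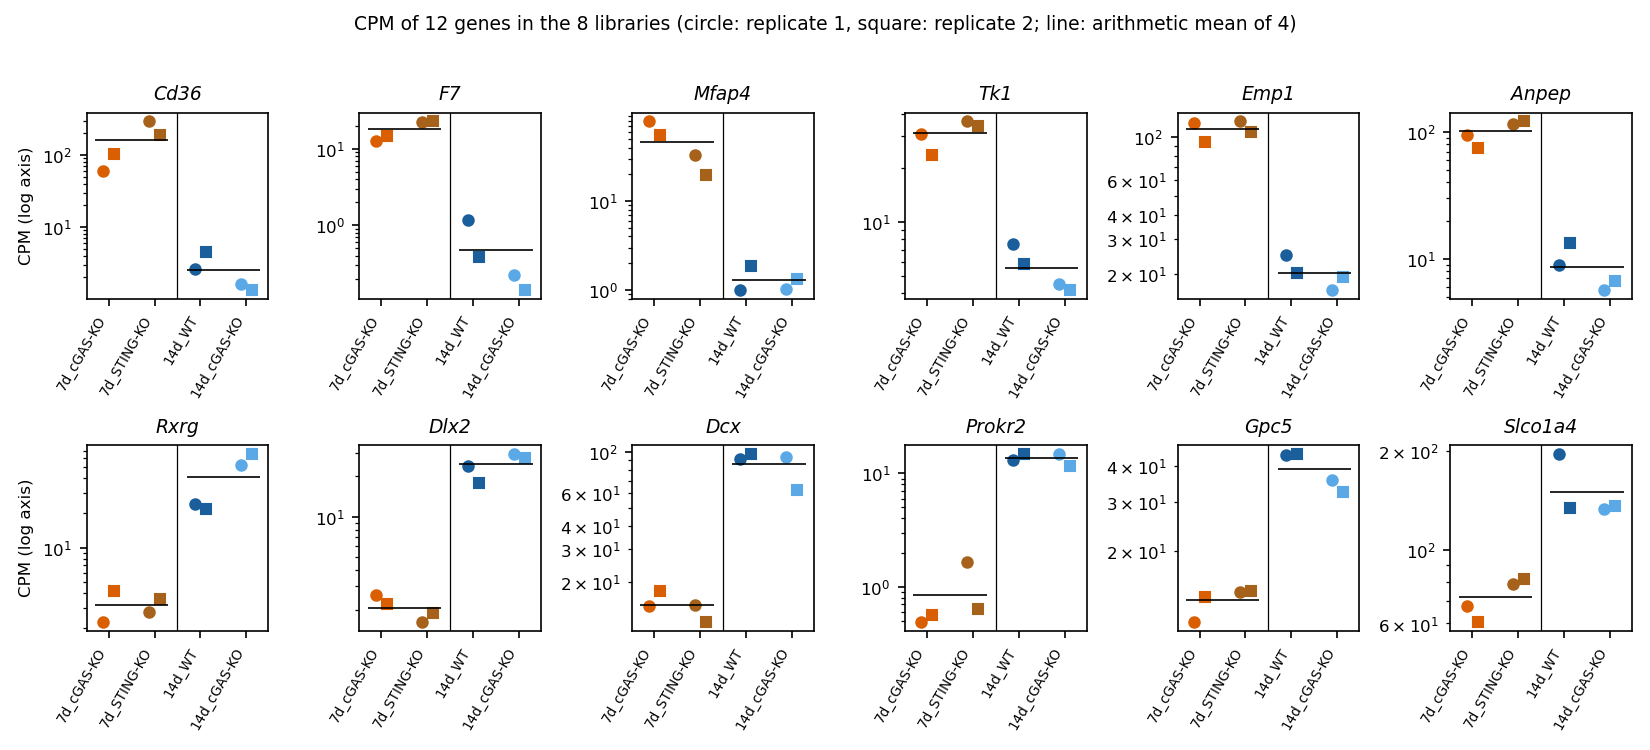
CPM (log axis) of 12 named genes in the 8 libraries, grouped by day and genotype, with circles for replicate 1, squares for replicate 2 and a line at the mean of 4 libraries. Cd36, F7, Mfap4, Tk1, Emp1 and Anpep were higher in all 4 day 7 libraries, and Rxrg, Dlx2, Dcx, Prokr2, Gpc5 and Slco1a4 were lower in all 4.

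Phagocyte genes of lipid handling and lysosomes were higher at day 7. Of 32 genes of disease-associated microglia, the state in which microglia upregulate phagocytic and lipid genes, 20 were higher in cGAS-KO at day 7 and 2 lower, beside 17% and 13.4% of all genes, with a median of 1.32. The 2 that fell were Cst7 (-1.99) and Ank (-0.58), named after their values were seen. With 1 library left out the call was lost for Cst7 (adjusted p = 0.172, 0.185, 0.104 and 0.152 without 7d_cGAS-KO replicate 1, 7d_cGAS-KO replicate 2, 14d_cGAS-KO replicate 1 and 14d_cGAS-KO replicate 2) and Ank (adjusted p = 0.0675 and 0.077 without 7d_cGAS-KO replicate 1 and 14d_cGAS-KO replicate 1). The list's mean log2 CPM lay at 8.19 to 8.81 in the day 7 libraries and at 6.79 to 7.43 in the day 14 libraries, and at 3.25 to 5.34 in the 4 libraries left out.

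Gpnmb, a membrane glycoprotein of lipid-laden phagocytes, measured 2098, 2464, 4557 and 4521 CPM at day 7 and 177, 339.9, 47.3 and 53.6 CPM at day 14, a cGAS-KO difference of 5.50 ± 0.58, adjusted p = 0.000104. Spp1, osteopontin, measured 3413, 2812, 10182 and 7730.1 CPM at day 7 and 692, 1085, 92.4 and 97 CPM at day 14, a cGAS-KO difference of 5.04 ± 0.52, adjusted p = 9.8e-05. For both genes the day 14 WT libraries lay well above the day 14 cGAS-KO libraries and still below every day 7 library. Lgals3, galectin 3, which binds damaged lysosomes, measured 345, 396, 644 and 569 CPM at day 7 and 41.2, 35.3, 17.9 and 26.3 CPM at day 14. Fabp5, a fatty-acid binding protein, measured 429.5, 483, 555 and 609 CPM at day 7 and 133, 111, 88.6 and 118 CPM at day 14.

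Of 37 lysosomal genes 30 were higher in cGAS-KO at day 7 and none fell, beside 17% and 13.4% of all genes. The median was 1.08. The mean of the list was 8.7 to 9.03 log2 CPM at day 7 and 7.35 to 7.78 at day 14. Psap, the precursor of the saposins that help degrade sphingolipids, measured 5346, 6054, 6298 and 6495 CPM at day 7 and 1654, 1921, 1401 and 1592 CPM at day 14, a cGAS-KO difference of 1.93 ± 0.19, adjusted p = 5.3e-05. Lipa, lysosomal acid lipase, which frees cholesterol from its esters, measured 242, 339, 318 and 294 CPM at day 7 and 76.6, 108, 56.5 and 60.7 CPM at day 14. Lgmn, the protease legumain, and Glb1, beta-galactosidase, differed by 1.80 and 1.52. None of the 4 overlapped between days.

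Of 27 genes of lipid uptake, storage and efflux, 21 were higher in cGAS-KO at day 7 and 2 lower. The shares of all genes were 17% and 13.4%, and the list's median was 1.06. Msr1, a class A scavenger receptor, measured 85.8, 93.7, 186 and 149 CPM at day 7 and 19.6, 16.6, 3.87 and 4.45 CPM at day 14, a cGAS-KO difference of 4.43 ± 0.24, adjusted p = 3.36e-06. Plin2, which coats lipid droplets, measured 450.2, 663, 995 and 730.0 CPM at day 7 and 55.4, 85, 40.7 and 37.5 CPM at day 14, a cGAS-KO difference of 3.83 ± 0.28, adjusted p = 1e-05. The falls were the lipoprotein receptor Vldlr (-0.84) and the triglyceride-synthesis gene Dgat2 (-1.36), named after their values were seen, and without 7d_cGAS-KO replicate 1 the count of falls was 1.

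**Figure D3:**
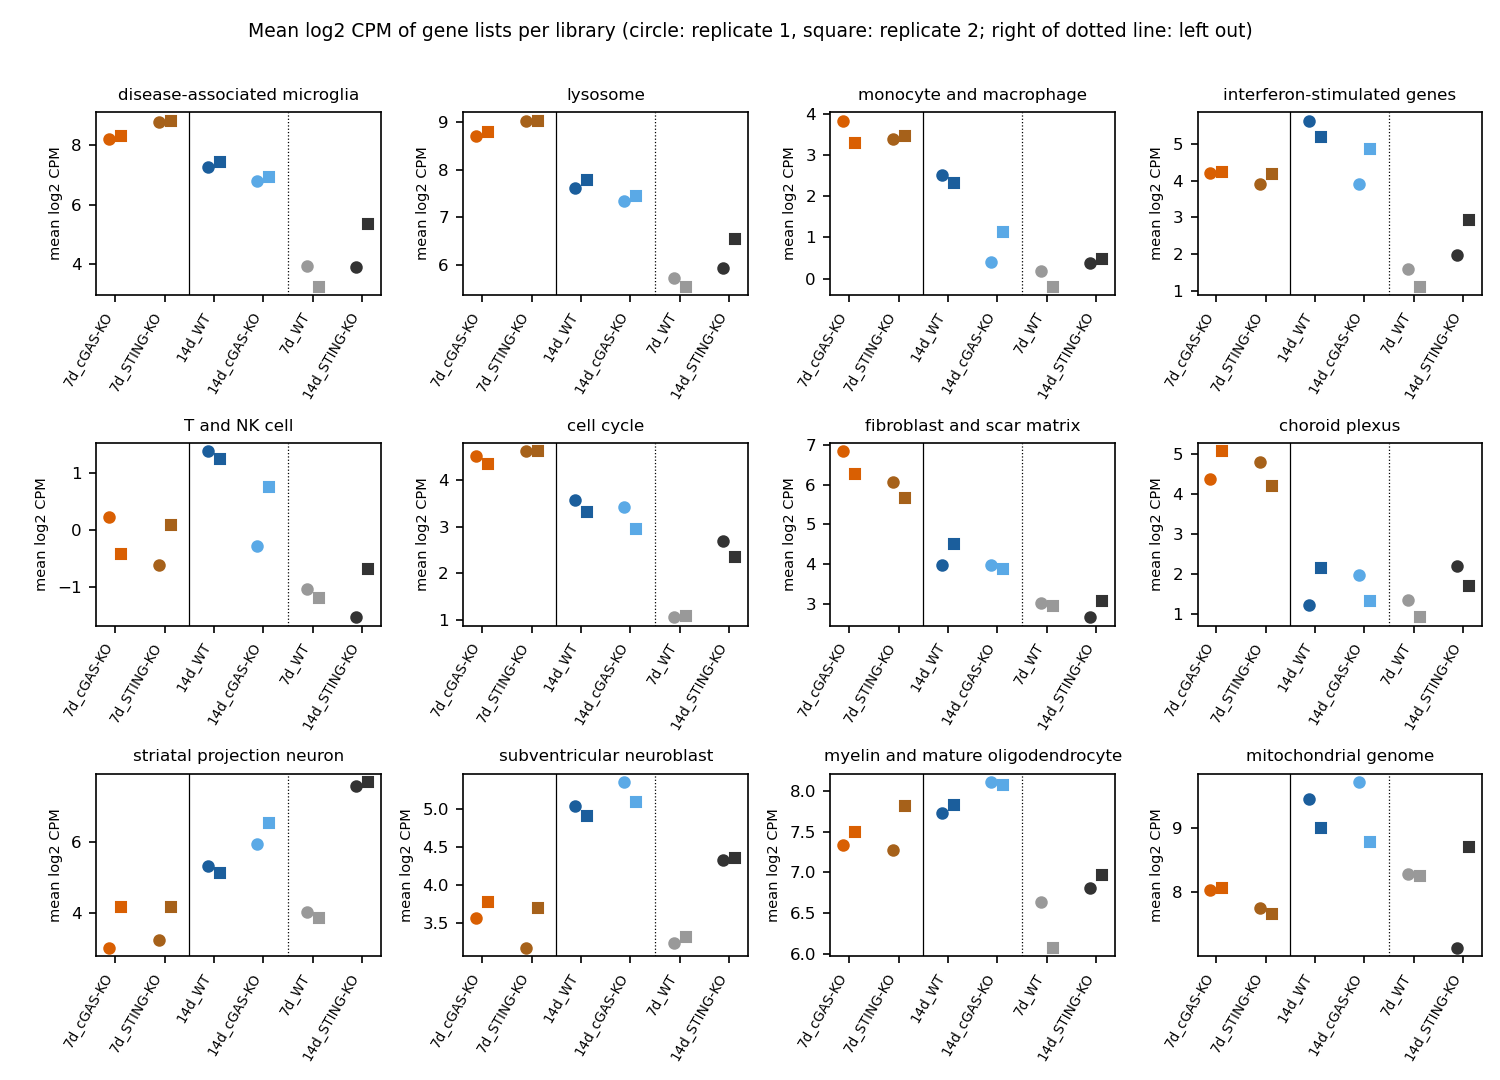
Mean log2 CPM of 12 gene lists in each of the 12 libraries (y axis), by group (x axis), with circles for replicate 1, squares for replicate 2, a solid line between day 7 and day 14 and a dotted line before the 4 libraries left out. Disease-associated microglia, lysosome, cell cycle, scar matrix and choroid plexus means were higher in all 4 day 7 libraries than in the 4 day 14 libraries, neuroblast and striatal neuron means were lower, and the interferon means of 14d_cGAS-KO straddled those of day 7.

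Of 20 homeostatic microglia genes 6 were higher in cGAS-KO at day 7 and 2 lower, beside 17% and 13.4% of all genes, with a median of 0.54, and the rises numbered 3 without 7d_cGAS-KO replicate 1, 2 without 14d_cGAS-KO replicate 1 and 2 without 14d_cGAS-KO replicate 2. Aif1, which encodes the pan-microglial protein Iba1, measured 76, 81.5, 82.1 and 93.5 CPM at day 7 and 57.7, 38.6, 34.4 and 32.5 CPM at day 14. Siglech, a lectin of resting microglia, went the other way at 27.2, 22.7, 23.9 and 31.5 CPM at day 7 and 77.8, 64.3, 75.9 and 53.2 CPM at day 14, a cGAS-KO difference of -1.37 ± 0.23, adjusted p = 0.00133. The purinergic receptor P2ry12, which senses nucleotides released by injured cells, differed by -0.68 ± 0.17, adjusted p = 0.00937 and is named after its value was seen. Bin2 and Sparc differed by 1.01 and 0.89. Leaving out 1 library ended the call for P2ry12 (adjusted p = 0.0742 and 0.0989 without 7d_cGAS-KO replicate 1 and 14d_cGAS-KO replicate 1), Bin2 (adjusted p = 0.0598 without 14d_cGAS-KO replicate 1) and Sparc (adjusted p = 0.0778 and 0.0555 without 7d_cGAS-KO replicate 1 and 14d_cGAS-KO replicate 2).

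Genes of infiltrating monocytes and macrophages were higher at day 7, and the day 14 groups differed among themselves. Of 26 genes 19 were higher in cGAS-KO at day 7 and 1 lower, beside 17% and 13.4% of all genes. The median was 3.3. The list's mean log2 CPM was 3.3 to 3.83 at day 7, 2.51 and 2.32 in 14d_WT, and 0.41 and 1.13 in 14d_cGAS-KO. Markers of this list were thus low in 14d_cGAS-KO and intermediate in 14d_WT. F13a1, the A subunit of coagulation factor XIII, measured 91.9, 75.4, 47.8 and 54.2 CPM at day 7 and 8.18, 9.49, 0.712 and 1.37 CPM at day 14, a cGAS-KO difference of 6.33 ± 0.35, adjusted p = 3.36e-06. Thbs1, thrombospondin 1, measured 175, 152, 347 and 199 CPM at day 7 and 30.1, 22.7, 4.14 and 6.06 CPM at day 14. Pf4, a chemokine of platelets and border macrophages, measured 33.4, 26, 35 and 27.5 CPM at day 7 and 3.74, 0.933, 0.4 and 0.994 CPM at day 14. The 14d_cGAS-KO libraries were the lowest in F13a1 and Thbs1. Clec4d, a C-type lectin of monocytes and neutrophils, measured 7.9, 9.47, 11.9 and 9.69 CPM at day 7 and 3.5, 1.59, 0.133 and 0.0946 CPM at day 14. The fall was Vcan (-0.79), a matrix proteoglycan that is also a gene of oligodendrocyte precursors and glia, and its call was lost with 1 library left out (adjusted p = 0.0706 without 14d_cGAS-KO replicate 1).

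Neutrophil genes were sparse, and their counts stand beside 17% of all genes higher in cGAS-KO at day 7 and 13.4% lower. Of 16 listed genes 8 passed the count filter, and 4 were higher in cGAS-KO at day 7, or 2 without 14d_cGAS-KO replicate 1. S100a8, a calcium-binding alarmin, measured 4.77, 3.76, 4.3 and 6.57 CPM at day 7 and 7.07, 1.76, 0.4 and 0.615 CPM at day 14, so 14d_WT replicate 1 was the highest of the 8 libraries. Mmp9, gelatinase B, measured 10.6, 2.57, 8.09 and 9.48 CPM at day 7 and 1.34, 1.15, 0.178 and 0.189 CPM at day 14. Trem1, an amplifying receptor of neutrophils and monocytes, was at 0.514 to 2.01 CPM at day 7 and had no count in the 14d_cGAS-KO libraries. The call rested on single libraries for S100a8 (adjusted p = 0.0605 without 14d_cGAS-KO replicate 1) and Trem1 (adjusted p = 0.0799, 0.0525, 0.0832 and 0.0651 without 7d_cGAS-KO replicate 1, 7d_cGAS-KO replicate 2, 14d_cGAS-KO replicate 1 and 14d_cGAS-KO replicate 2).

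Of 22 complement genes 15 were higher in cGAS-KO at day 7, or 8 without 7d_cGAS-KO replicate 1, 7 without 14d_cGAS-KO replicate 1 and 7 without 14d_cGAS-KO replicate 2. C5ar1, the receptor of the anaphylatoxin C5a, measured 47.1, 67.3, 106 and 85.6 CPM at day 7 and 19.3, 19.4, 6.99 and 7.81 CPM at day 14, a cGAS-KO difference of 2.95 ± 0.30, adjusted p = 6.81e-05. Cfp, properdin, which stabilises the alternative pathway convertase, measured 49.4, 78.7, 64.5 and 63.5 CPM at day 7 and 20.2, 22.5, 18.3 and 24 CPM at day 14. Both were higher in every day 7 library. C1ra, a protease of the classical pathway, differed by 2.71. Of all genes 17% were higher in cGAS-KO at day 7 and 13.4% lower. The fall of the list was C4b (-1.34), named after its value was seen. Its call was lost with any of the 4 libraries left out (adjusted p = 0.088, 0.124, 0.0701 and 0.0932 without 7d_cGAS-KO replicate 1, 7d_cGAS-KO replicate 2, 14d_cGAS-KO replicate 1 and 14d_cGAS-KO replicate 2).

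Interferon-stimulated genes followed another course: within cGAS-KO few of them were called, and their levels differed between the 14d_cGAS-KO libraries. The list's mean log2 CPM was 4.2 and 4.23 in 7d_cGAS-KO, 3.91 and 4.19 in 7d_STING-KO, 5.64 and 5.19 in 14d_WT, and 3.9 and 4.87 in 14d_cGAS-KO. The 14d_WT libraries were thus the highest, and the 4 day 7 libraries lay between the 14d_cGAS-KO libraries, with 7d_STING-KO replicate 1 next to the lower one. Of 66 genes 3 were higher and 4 lower in cGAS-KO at day 7, a smaller share than the 17% and 13.4% of all genes. Their median log2 change was -0.36 in cGAS-KO and -1.4 in 7d_STING-KO against 14d_WT.

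The interferon result within cGAS-KO turned with 1 library. Without 14d_cGAS-KO replicate 1, 16 genes were lower at day 7 and none higher, and without 14d_cGAS-KO replicate 2, none were lower and 10 higher. Without 7d_cGAS-KO replicate 1, 1 gene was higher and 1 lower, and without replicate 2, 1 was higher and 2 lower. Herc6, an interferon-induced ubiquitin ligase, measured 13.9, 15.4, 11.5 and 10.3 CPM at day 7 and 58, 39.8, 22.6 and 36.1 CPM at day 14. Cmpk2, a mitochondrial nucleotide kinase, measured 14.5, 18.5, 16.1 and 14.7 CPM at day 7 and 66, 47.9, 25.9 and 49.3 CPM at day 14. In both genes every day 7 library lay below every day 14 library. Their cGAS-KO differences were -1.0 ± 0.25, adjusted p = 0.0104 and -1.18 ± 0.27, adjusted p = 0.00735. Cxcl10, a chemokine that draws activated T cells, is named after its value was seen and differed by -1.93 ± 0.54, adjusted p = 0.0197, and Ifit3b, which shares reads with its near copy Ifit3, by -1.87 ± 0.51, adjusted p = 0.0185. The rises were Psmb8 (1.17), a subunit of the immunoproteasome, and, named after their values were seen, Bst2 (1.17) and Trim25 (0.78). With 1 library left out the call was lost for Herc6 (adjusted p = 0.0776 and 0.107 without 7d_cGAS-KO replicate 1 and 14d_cGAS-KO replicate 2), Cmpk2 (adjusted p = 0.0717 and 0.0767 without 7d_cGAS-KO replicate 1 and 14d_cGAS-KO replicate 2), Cxcl10 (adjusted p = 0.129 and 0.119 without 7d_cGAS-KO replicate 2 and 14d_cGAS-KO replicate 2), Ifit3b (adjusted p = 0.115, 0.0768 and 0.202 without 7d_cGAS-KO replicate 1, 7d_cGAS-KO replicate 2 and 14d_cGAS-KO replicate 2), Psmb8 (adjusted p = 0.0729 without 14d_cGAS-KO replicate 1), Bst2 (adjusted p = 0.0962, 0.126 and 0.22 without 7d_cGAS-KO replicate 1, 7d_cGAS-KO replicate 2 and 14d_cGAS-KO replicate 1) and Trim25 (adjusted p = 0.0812, 0.0744 and 0.151 without 7d_cGAS-KO replicate 1, 7d_cGAS-KO replicate 2 and 14d_cGAS-KO replicate 1). Isg15, a ubiquitin-like modifier, measured 13.2, 13.2, 8.37 and 9.16 CPM at day 7 and 23.8, 14.7, 5.25 and 15.9 CPM at day 14. Ifit1, which binds foreign RNA, measured 17.6, 10.6, 8.09 and 9.16 CPM at day 7 and 94.7, 49.7, 15.8 and 48 CPM at day 14. They are named for their promoters, and neither was called in cGAS-KO (adjusted p = 0.579 and 0.0804). Without 14d_cGAS-KO replicate 1 Ifit1 was called lower, at -1.75 (adjusted p = 0.0137), and without 14d_cGAS-KO replicate 2 Isg15 was called higher, at 1.34 (adjusted p = 0.0162). Isg15 changed sign without 14d_cGAS-KO replicate 1, at -0.25 (adjusted p = 0.592).

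Many interferon-stimulated genes are known to carry a promoter element that binds STAT and IRF proteins. The motif, GAAA followed by NN and GAAA, was searched on both strands in the 250 bases before each RefSeq start (GRCm38.p6). It was found in 23 of 59 windows of the list (39%; 51 of 66 genes had an entry) and in 2.98% of 32851 windows of all genes. The promoters of Isg15 (chr4:156200819-156200968, minus strand) and Ifit1 (chr19:34640739-34640888, plus strand) are given for the 150 bases before the start, 5′ to 3′ on the gene's strand, with matches in capitals. The matches in Isg15 overlap one another, and those in Ifit1 lie on the opposite strand. They were chosen because they hold the motif, and neither is among the 7 members called in cGAS-KO. Of those 7, Bst2, Cxcl10 and Ifit3b held a match in their 250 bases, and Cmpk2, Herc6, Psmb8 and Trim25 held none.
Isg15: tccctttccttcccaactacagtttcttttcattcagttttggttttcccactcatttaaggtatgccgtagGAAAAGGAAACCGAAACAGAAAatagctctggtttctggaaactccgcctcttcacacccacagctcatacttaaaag
Ifit1: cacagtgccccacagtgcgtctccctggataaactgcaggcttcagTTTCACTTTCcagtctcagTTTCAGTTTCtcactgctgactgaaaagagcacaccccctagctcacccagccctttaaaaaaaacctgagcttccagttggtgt

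The mean log2 CPM of 30 T and NK cell genes was -0.61 to 0.23 at day 7 and -0.27 to 1.38 at day 14. In cGAS-KO 5 of them were lower at day 7 (1 without 7d_cGAS-KO replicate 1, 1 without 7d_cGAS-KO replicate 2 and 2 without 14d_cGAS-KO replicate 2) and 1 was higher, beside 13.4% and 17% of all genes, with a median of -0.6. Nkg7, a granule protein of cytotoxic cells, measured 0.422, 0.206, 0.229 and 0.689 CPM at day 7 and 3.68, 2.58, 1.07 and 1.47 CPM at day 14. Cd8b1, the CD8 beta chain, measured 0.0603, 0.0514, 0.115 and 0.9 CPM at day 7 and 2.16, 2.2, 0.89 and 0.994 CPM at day 14. Cd4 measured 5.61, 5.97, 5.51 and 8.95 CPM at day 7 and 11.1, 8.07, 13.3 and 28.4 CPM at day 14, and is also made by myeloid cells. The others were Trbc1 (-2.21) and Gzmk (-2.37), named after their values were seen. Leaving out 1 library ended the call for Nkg7 (adjusted p = 0.0551, 0.138 and 0.088 without 7d_cGAS-KO replicate 1, 7d_cGAS-KO replicate 2 and 14d_cGAS-KO replicate 2), Cd8b1 (adjusted p = 0.0827 and 0.0792 without 7d_cGAS-KO replicate 1 and 7d_cGAS-KO replicate 2), Trbc1 (adjusted p = 0.144, 0.214 and 0.318 without 7d_cGAS-KO replicate 1, 7d_cGAS-KO replicate 2 and 14d_cGAS-KO replicate 2) and Gzmk (adjusted p = 0.13, 0.171 and 0.182 without 7d_cGAS-KO replicate 1, 7d_cGAS-KO replicate 2 and 14d_cGAS-KO replicate 2). The rise was Gzma, granzyme A, at 2.29, 1.39, 0.287 and 0.741 CPM at day 7 and 1.81, 0.878, 0 and 0 CPM at day 14. Its values overlapped between days. Among 11 B and plasma cell genes, Ighm, the heavy chain of IgM, measured 21.3, 22.5, 11.6 and 19.6 CPM at day 7 and 55.6, 67.9, 60.9 and 82.4 CPM at day 14, and was lower in all 4 day 7 libraries. Sdc1, which is also made by epithelia, measured 20.1, 11.5, 12.7 and 13.1 CPM at day 7 and 4.38, 4.56, 5.25 and 2.55 CPM at day 14. Cd79b, a chain of the B cell receptor, measured 6.09, 3.34, 1.66 and 3.07 CPM at day 7 and 2.28, 0.768, 0.623 and 1.7 CPM at day 14. Both were called higher, and the call of Cd79b was lost with 1 library left out (adjusted p = 0.158 and 0.157 without 7d_cGAS-KO replicate 1 and 14d_cGAS-KO replicate 1).

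Antigen presentation genes were higher in cGAS-KO at day 7 in part. Their counts stand beside 17% of all genes higher in that comparison and 13.4% lower. Of 12 MHC class II genes 7 were higher (2 without 7d_cGAS-KO replicate 1 and 4 without 14d_cGAS-KO replicate 1), with a median of 1.39. H2-Ab1 measured 91.9, 55.7, 26.8 and 48.6 CPM at day 7 and 28.6, 33.4, 9.66 and 18.1 CPM at day 14. H2-Eb1 measured 76.8, 44.8, 17.6 and 41.7 CPM at day 7 and 17.8, 26.8, 4.36 and 14.4 CPM at day 14. In both genes 7d_STING-KO replicate 1 fell within the day 14 range, and the other day 7 libraries lay above it. Ciita, the master regulator of class II genes, differed by 1.56 ± 0.39, adjusted p = 0.0104. Ifi30, a thiol reductase of the endosome, measured 145, 119, 154 and 149 CPM at day 7 and 32.5, 27.1, 16.6 and 23.2 CPM at day 14 and did not overlap. The fall was H2-Oa (-2.0), named after its value was seen. The call rested on single libraries for H2-Oa (adjusted p = 0.067, 0.061 and 0.0526 without 7d_cGAS-KO replicate 1, 7d_cGAS-KO replicate 2 and 14d_cGAS-KO replicate 2), Ciita (adjusted p = 0.0747 and 0.0712 without 7d_cGAS-KO replicate 1 and 14d_cGAS-KO replicate 2) and H2-Eb1 (adjusted p = 0.0502 without 7d_cGAS-KO replicate 1). Of 18 class I genes 6 were higher (3 without 7d_cGAS-KO replicate 1, 3 without 7d_cGAS-KO replicate 2 and 2 without 14d_cGAS-KO replicate 1), among them the peptide transporter Tap2 (1.07), the proteasome activator Psme2 (1.0) and H2-M3 (0.99). The call of H2-M3 was lost with any of the 4 libraries left out (adjusted p = 0.0919, 0.091, 0.163 and 0.0526 without 7d_cGAS-KO replicate 1, 7d_cGAS-KO replicate 2, 14d_cGAS-KO replicate 1 and 14d_cGAS-KO replicate 2).

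Of 27 chemokine genes 6 were higher and 3 lower in cGAS-KO at day 7, shares near the 17% and 13.4% of all genes. Ccl2, the main attractant of monocytes, measured 7.84, 6.64, 13 and 14.5 CPM at day 7 and 4.67, 4.39, 0.979 and 1.37 CPM at day 14. Ccl7 measured 3.5, 3.14, 3.1 and 3.39 CPM at day 7 and 2.28, 2.03, 0.222 and 0.568 CPM at day 14. Cxcl12, which is made by vessels and meninges and holds CXCR4-bearing cells, measured 319, 227, 111 and 124 CPM at day 7 and 94.5, 99.8, 94.4 and 97 CPM at day 14. In all 3 every day 7 library lay above every day 14 library. The falls were Cxcl9 (-3.91), Cxcl10 and Cx3cl1 (-0.77), named after their values were seen. With 1 library left out the call was lost for Cxcl9 (adjusted p = 0.1, 0.093 and 0.0618 without 7d_cGAS-KO replicate 1, 7d_cGAS-KO replicate 2 and 14d_cGAS-KO replicate 1) and Cx3cl1 (adjusted p = 0.173 and 0.189 without 7d_cGAS-KO replicate 1 and 14d_cGAS-KO replicate 2), and for Cxcl10 as given above.

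Of 25 cytokine genes 7 were higher (4 without 7d_cGAS-KO replicate 1 and 4 without 14d_cGAS-KO replicate 1) and 5 lower (2 without 7d_cGAS-KO replicate 1, 2 without 7d_cGAS-KO replicate 2, 2 without 14d_cGAS-KO replicate 1 and 1 without 14d_cGAS-KO replicate 2) in the same comparison. Tnf measured 5.19, 3.09, 8.83 and 7.26 CPM at day 7 and 1.64, 1.15, 0.133 and 0.899 CPM at day 14. Tgfb1, a driver of scar formation, measured 147, 143, 187 and 189 CPM at day 7 and 40.8, 40, 38.8 and 51.1 CPM at day 14, a cGAS-KO difference of 1.69 ± 0.25, adjusted p = 0.000594. Il18bp, the decoy of interleukin 18, differed by 1.88 ± 0.21, adjusted p = 0.000114. These 3 were among the rises, in a comparison that called 17% of all genes higher and 13.4% lower. Il33, one of the falls, is an alarmin of oligodendrocytes and astrocytes and measured 136, 136, 126 and 177 CPM at day 7 and 212, 206, 269 and 255 CPM at day 14.

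Of the 13 genes tested around cGAS and STING, 5 were higher in cGAS-KO at day 7 (3 without 7d_cGAS-KO replicate 1 and 3 without 14d_cGAS-KO replicate 1) and none fell. Enpp1, the hydrolase that degrades extracellular cGAMP, measured 97.2, 91.8, 69.7 and 63.8 CPM at day 7 and 14.6, 28, 16.6 and 14.9 CPM at day 14, a cGAS-KO difference of 2.59 ± 0.25, adjusted p = 5.17e-05. Nlrc3, an inhibitor of STING, measured 23.5, 24.3, 43.9 and 35.5 CPM at day 7 and 9.58, 9.93, 4.58 and 5.3 CPM at day 14. The count of this list stands beside 17% of all genes higher in cGAS-KO at day 7 and 13.4% lower. The kinases Tbk1 and Ikbke, which phosphorylate IRF3 downstream of STING, differed by 0.45 ± 0.13, adjusted p = 0.0187 and 1.14 ± 0.21, adjusted p = 0.00209, and Tmem173 itself by 0.69 ± 0.23, adjusted p = 0.039. Leaving out 1 library ended the call for Tbk1 (adjusted p = 0.128, 0.0765 and 0.0527 without 7d_cGAS-KO replicate 1, 14d_cGAS-KO replicate 1 and 14d_cGAS-KO replicate 2).

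Genes of cell division were higher at day 7 nearly without exception. Of 50 cell cycle genes 47 were higher and 1 was lower in the pooled comparison, beside 24.9% and 22.4% of all genes. Their median was 1.28, and 44 had all day 7 libraries above all day 14 libraries, beside 22.6% of all genes. The medians of the component comparisons were 1.26 and 1.2. The mean log2 CPM of the list was 4.34 to 4.61 at day 7, 2.95 to 3.57 at day 14, 1.06 and 1.08 in 7d_WT and 2.7 and 2.34 in 14d_STING-KO. Over all 6 groups 21 genes were higher and 4 lower, beside 25.1% and 26.6% of all genes, with a median of 0.26.

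Tk1, thymidine kinase of the S phase, measured 30.9, 23.7, 36.3 and 34.2 CPM at day 7 and 7.54, 5.82, 4.54 and 4.16 CPM at day 14, a pooled difference of 2.52 ± 0.15, adjusted p = 6.15e-07. Mki67, which coats mitotic chromosomes and marks dividing cells, measured 88.3, 89.4, 126 and 110.1 CPM at day 7 and 38, 33.1, 38 and 22.9 CPM at day 14, a difference of 1.64 ± 0.14, adjusted p = 8.8e-06. No day 7 library fell below a day 14 library in either gene. Cdt1, which licenses replication origins, measured 24.3, 18.7, 33.3 and 32.3 CPM at day 7 and 7.77, 6.42, 6.14 and 7.29 CPM at day 14. Aurkb, a kinase of chromosome segregation, measured 17.3, 18.4, 19.7 and 17.4 CPM at day 7 and 5.9, 6.92, 5.12 and 4.49 CPM at day 14. Mcm2 and Mcm3, subunits of the replicative helicase, differed by 1.51 and 1.46. Neither overlapped between days. The fall was Anln, an actin-binding protein of cytokinesis that mature oligodendrocytes also express, at 42.5, 62.4, 74.7 and 72.7 CPM at day 7 and 97.7, 165, 175 and 157 CPM at day 14.

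Cell cycle promoters often carry a CCAAT box, which binds NF-Y, and a CHR element (TTTGAA or TTCGAA), at which the DREAM complex silences genes in resting cells. CCAAT was found on either strand in 34 of 47 windows of 250 bases of the list (72.3%; 43 of 50 genes had an entry) and in 33.8% of all 32851 windows. TTTGAA or TTCGAA was found in 13 windows of the list (27.7%) and in 17.1% of all. Mki67 (chr7:135716380-135716529, minus strand) holds both motifs, and Mcm3 (chr1:20820313-20820462, minus strand) holds 3 CCAAT boxes, of which 1 lies on the opposite strand and reads ATTGG. They were chosen because they hold the motifs, and are shown with 150 bases before the start and matches in capitals. Of the other named members, Mcm2 held both motifs in its 250 bases, and Tk1, Cdt1 and Anln held neither.
Mki67: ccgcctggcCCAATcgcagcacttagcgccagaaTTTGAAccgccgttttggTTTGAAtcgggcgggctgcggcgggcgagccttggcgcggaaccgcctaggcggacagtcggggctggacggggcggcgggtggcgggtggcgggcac
Mcm3: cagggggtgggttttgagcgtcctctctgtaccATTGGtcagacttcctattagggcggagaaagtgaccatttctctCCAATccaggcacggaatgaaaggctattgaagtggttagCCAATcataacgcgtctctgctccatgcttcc

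Genes of fibroblasts and scar matrix were higher at day 7. Of 46 genes 41 were higher and none fell in the pooled comparison, beside 24.9% and 22.4% of all genes. The median was 1.84, and the medians of the component comparisons were 2.32 in cGAS-KO and 1.52 in the other. The mean log2 CPM was 6.84 and 6.26 in 7d_cGAS-KO, 6.06 and 5.66 in 7d_STING-KO, and 3.88 to 4.5 at day 14. Over all 6 groups 37 were higher and 2 lower, beside 25.1% and 26.6% of all genes. In the groups left out the mean log2 CPM was 3.01 and 2.95 in 7d_WT and 2.66 and 3.07 in 14d_STING-KO. The 7d_WT libraries thus lay below the day 14 libraries described here. Col1a2, a chain of fibrillar collagen I, measured 1286, 746, 588 and 424 CPM at day 7 and 28.1, 79, 28.7 and 22.2 CPM at day 14, a pooled difference of 4.28 ± 0.33, adjusted p = 5.82e-06. Serpinh1, the collagen chaperone HSP47, measured 354, 277, 144 and 118 CPM at day 7 and 39, 50.5, 42.5 and 50.3 CPM at day 14. Loxl2, which cross-links collagen, measured 58.4, 40.4, 34.9 and 18.2 CPM at day 7 and 2.92, 5.76, 2.27 and 1.42 CPM at day 14. The lowest day 7 library of each stood above all of day 14. Fbn1, fibrillin 1 of microfibrils, measured 84.3, 59.8, 53.9 and 37.6 CPM at day 7 and 8.82, 11.1, 10 and 6.39 CPM at day 14. In all 4 genes the 7d_cGAS-KO libraries exceeded the 7d_STING-KO libraries, and all of these exceeded day 14.

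Matrix-degrading enzymes were mostly higher too. Of 21 metalloproteinases and inhibitors 14 were higher and 3 lower in the pooled comparison, beside 24.9% and 22.4% of all genes. The median was 1.62. Mmp12, macrophage elastase, measured 30.2, 17.4, 69 and 103 CPM at day 7 and 2.63, 3.51, 2.27 and 2.74 CPM at day 14, a cGAS-KO difference of 3.24 ± 0.36, adjusted p = 5.3e-05. Mmp14, a membrane collagenase that activates Mmp2, measured 209, 149.7, 166 and 136 CPM at day 7 and 22.8, 40.4, 25.2 and 33.2 CPM at day 14. Mmp2, gelatinase A, measured 103, 70.9, 54.3 and 47.9 CPM at day 7 and 20.6, 22.8, 20.2 and 22.9 CPM at day 14. The falls, named after their values were seen, were Mmp16 (-0.73), Mmp17 (-0.64) and Mmp24 (-0.67). The call rested on single libraries for Mmp16 (adjusted p = 0.0527, 0.0618, 0.0827 and 0.0733 without 7d_cGAS-KO replicate 2, 7d_STING-KO replicate 1, 14d_WT replicate 2 and 14d_cGAS-KO replicate 1), Mmp17 (adjusted p = 0.167, 0.124, 0.0789, 0.224 and 0.149 without 7d_cGAS-KO replicate 1, 7d_STING-KO replicate 1, 7d_STING-KO replicate 2, 14d_WT replicate 2 and 14d_cGAS-KO replicate 2) and Mmp24 (adjusted p = 0.0559 without 14d_WT replicate 2).

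Genes of the vessel wall were mostly higher and endothelial genes in part. Of 20 pericyte and smooth muscle genes 15 were higher and 1 lower in the pooled comparison, beside 24.9% and 22.4% of all genes. The median was 1.31. Pdgfrb, the receptor that recruits pericytes and is also found on scar fibroblasts, measured 235, 139.8, 144 and 107 CPM at day 7 and 44, 41.8, 30.3 and 46.2 CPM at day 14. Anpep, an aminopeptidase of pericytes that myeloid cells also express, measured 95.5, 74.1, 117 and 121 CPM at day 7 and 8.88, 13.2, 5.65 and 6.67 CPM at day 14, a cGAS-KO difference of 3.78 ± 0.22, adjusted p = 3.36e-06. Both were higher in every day 7 library. Myh11 and Mylk, contractile genes of smooth muscle, differed by 1.85 and 1.24. The fall was Atp13a5, an ATPase of brain pericytes, at 18.4, 13.6, 9.52 and 9.96 CPM at day 7 and 35.2, 26.6, 27 and 24.5 CPM at day 14.

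Of 34 endothelial genes 13 were higher and 5 lower in the pooled comparison, beside 24.9% and 22.4% of all genes, with a median of 0.29. In cGAS-KO 11 were higher and 3 lower, beside 17% and 13.4% of all genes, with a median of 0.49. In 7d_STING-KO against 14d_WT 3 were higher and 5 lower, beside 17.6% and 14.6% of all genes, with a median of 0.12. The share of rises there was below that of all genes. Angpt2, the ligand that destabilises vessels during sprouting, measured 53.6, 29.7, 33.5 and 12.7 CPM at day 7 and 1.64, 1.98, 1.74 and 1.28 CPM at day 14, a pooled difference of 4.22 ± 0.38, adjusted p = 1.33e-05. Cdh5, the endothelial cadherin, measured 182, 80, 70 and 47.2 CPM at day 7 and 32.7, 24, 24.7 and 33.1 CPM at day 14. Tie1, a receptor kinase of endothelium, measured 105, 53.4, 50.2 and 44.3 CPM at day 7 and 32.3, 20.3, 21.1 and 28.4 CPM at day 14. For both genes 7d_cGAS-KO replicate 1 was the highest library. Kdr, a receptor of VEGF, measured 54.9, 34.8, 24.7 and 26.9 CPM at day 7 and 18.1, 26.9, 17.7 and 16.2 CPM at day 14 and overlapped between days. Slco1a4, an organic anion transporter of the blood-brain barrier, was lower at 67.8, 60.4, 79.2 and 82 CPM at day 7 and 196, 134, 133 and 136 CPM at day 14. The other falls, named after their values were seen, were Flt1 (-0.47), Slco1c1 (-0.50), Tjp1 (-0.35) and Spock2 (-0.63). With 1 library left out the call was lost for Slco1c1 (adjusted p = 0.0614, 0.053, 0.0636 and 0.0503 without 7d_cGAS-KO replicate 1, 7d_STING-KO replicate 1, 14d_WT replicate 1 and 14d_cGAS-KO replicate 2) and Tjp1 (adjusted p = 0.0579, 0.0614 and 0.0541 without 7d_cGAS-KO replicate 2, 7d_STING-KO replicate 1 and 14d_cGAS-KO replicate 1).

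Reactive and resting astrocyte genes had medians of opposite sign. Of 35 reactive astrocyte genes 14 were higher and 3 lower in the pooled comparison, beside 24.9% and 22.4% of all genes. The median was 0.47. Emp1, an epithelial membrane protein, measured 118, 94, 120.2 and 106 CPM at day 7 and 25, 20.3, 16.5 and 19.2 CPM at day 14, a pooled difference of 2.45 ± 0.12, adjusted p = 2.45e-07. Tnc, tenascin C of the injury matrix, measured 37.5, 42.4, 20.9 and 34.5 CPM at day 7 and 10.5, 9.28, 9.12 and 10.3 CPM at day 14. Nes, the intermediate filament nestin, measured 89.3, 58.6, 52.8 and 62.1 CPM at day 7 and 26.3, 18.6, 20 and 22.8 CPM at day 14. All 3 were higher in every day 7 library. Lgals1, galectin 1, measured 331, 273, 381 and 345 CPM at day 7 and 20.3, 12.5, 17.7 and 38 CPM at day 14. Cp, ceruloplasmin, a ferroxidase, measured 149, 76.3, 99.2 and 88.3 CPM at day 7 and 71.9, 60.1, 28.3 and 27.9 CPM at day 14. Several of these genes are also made by fibroblasts, vessels or macrophages, whose lists were higher at day 7 too, and their part in the result was not tested. The falls, named after their values were seen, were Cxcl10 (-1.99), C3 (-1.24) and B3gnt5 (-0.94). Cxcl10 and C3 are immune genes, so their pooled calls in this count are a description without a test. The call of B3gnt5 was lost with 1 library left out (adjusted p = 0.0562, 0.0573 and 0.0535 without 7d_STING-KO replicate 1, 14d_WT replicate 1 and 14d_cGAS-KO replicate 1).

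Of 28 homeostatic astrocyte genes 14 were lower and 3 higher, beside 22.4% and 24.9% of all genes. The median was -0.37. Gpc5, a heparan sulphate proteoglycan, measured 11.2, 13.8, 14.3 and 14.4 CPM at day 7 and 43.8, 44.3, 35.7 and 32.5 CPM at day 14, a pooled difference of -1.53 ± 0.12, adjusted p = 3.25e-06. Ntsr2, a neurotensin receptor, measured 79.9, 88.8, 113 and 119 CPM at day 7 and 244, 186, 277 and 274 CPM at day 14. Slc1a2, the main glutamate transporter, measured 1012, 1469, 1034 and 1479 CPM at day 7 and 2996, 3736, 3015 and 2495 CPM at day 14. Every day 7 library lay below every day 14 library in these 3 genes. Gabrg1, a subunit of the GABA-A receptor, and S100b differed by -1.06 and -0.77. The rises were Agt (described with the differences between the comparisons) and, named after their values were seen, Slc6a11 (0.45) and Slc25a18 (0.59). The call of Slc6a11 was lost with 1 library left out (adjusted p = 0.0517 without 7d_cGAS-KO replicate 2).

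About as many genes of mature oligodendrocytes were lower at day 7 as were not called. Of 30 genes 14 were lower and 2 higher, beside 22.4% and 24.9% of all genes. The median was -0.41 pooled, -0.7 in cGAS-KO and -0.06 in the other comparison. Mobp, a structural protein of myelin, measured 1360.3, 1455, 1993 and 2024 CPM at day 7 and 4189.5, 2692, 4606 and 5107 CPM at day 14. Aspa, which releases acetate from N-acetylaspartate, measured 26.5, 25.5, 30.8 and 39 CPM at day 7 and 62.1, 62.5, 68.5 and 63.1 CPM at day 14, a pooled difference of -1.09 ± 0.15, adjusted p = 0.000181. Gjc3, a connexin, and Tspan2 differed by -1.04 and -0.93. Every day 7 library was below every day 14 library in these 4 genes. The rises, named after their values were seen, were Enpp2 (1.25), which choroid plexus makes in large amounts, and Gsn (0.38). The call of Gsn was lost with any of 6 libraries left out (adjusted p = 0.115, 0.0607, 0.21, 0.135, 0.0885 and 0.0927 without 7d_cGAS-KO replicate 1, 7d_cGAS-KO replicate 2, 7d_STING-KO replicate 2, 14d_WT replicate 2, 14d_cGAS-KO replicate 1 and 14d_cGAS-KO replicate 2).

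Of 23 genes of precursor and newly formed oligodendrocytes 4 were higher and 7 lower in the pooled comparison, beside 24.9% and 22.4% of all genes, and the falls numbered 4 without 7d_cGAS-KO replicate 1 and 4 without 7d_STING-KO replicate 1. Cspg4, the proteoglycan NG2, which pericytes also express, measured 85.1, 55, 170.0 and 141 CPM at day 7 and 38.2, 40.2, 37.7 and 43.9 CPM at day 14. Pdgfra, which scar fibroblasts also express, measured 143, 128, 101 and 98.4 CPM at day 7 and 66.2, 103, 73.6 and 60.2 CPM at day 14. Pdgfra overlapped between days at 14d_WT replicate 2. Ptprz1, a receptor phosphatase of precursors and astrocytes, measured 169.8, 201, 150.3 and 227 CPM at day 7 and 342, 414, 348 and 277 CPM at day 14. Cacng4, an auxiliary subunit of AMPA receptors, measured 29.5, 33.5, 36.2 and 49.8 CPM at day 7 and 48.4, 58.1, 86.5 and 102 CPM at day 14. The other rises, named after their values were seen, were Bmp4 (0.88) and Tcf7l2 (0.79). Lhfpl3 differed by -0.43 ± 0.12, adjusted p = 0.00871.

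Striatal projection neuron genes had the lowest median of the 42 lists. Of 47 genes 45 were lower and 1 higher in the pooled comparison, beside 22.4% and 24.9% of all genes. The median was -2.18, and 37 genes had no overlap between days, beside 18.6% of all genes. The medians were -2.56 in cGAS-KO and -1.44 in the other comparison. Averaged over the list, log2 CPM was 3.02, 4.16, 3.23 and 4.18 in the day 7 libraries, 5.32 and 5.12 in 14d_WT and 5.93 and 6.52 in 14d_cGAS-KO. In the libraries left out it was 4.04 and 3.86 in 7d_WT and 7.55 and 7.67 in 14d_STING-KO, so no day 7 library of the series reached the day 14 level.

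The labelled tissue was present by its markers in all 8 libraries, though thinly in some. Drd1 and Drd2, the dopamine receptors of direct- and indirect-pathway neurons, are named for this check after their values were seen. Drd1 measured 2.17, 11.2, 1.84 and 12.9 CPM at day 7 and 42, 33.9, 61.1 and 89.1 CPM at day 14. Drd2 measured 0.845, 8.54, 2.12 and 10.2 CPM at day 7 and 38.4, 25.6, 58.7 and 107 CPM at day 14. Replicate 1 of both day 7 groups was lower in these receptors than replicate 2, and all 4 were below day 14. Arpp21, a regulator of RNA and calmodulin in striatal neurons, measured 65.3, 122, 82.1 and 79.3 CPM at day 7 and 358, 309, 448 and 559 CPM at day 14, a pooled difference of -2.23 ± 0.19, adjusted p = 7.59e-06. Sp9, a transcription factor of striatal lineages, measured 3.32, 6.02, 4.02 and 5.24 CPM at day 7 and 20.9, 17.3, 28.9 and 41.3 CPM at day 14. Foxp2, another, measured 8.08, 8.39, 10.2 and 8.47 CPM at day 7 and 26.6, 26.1, 38.2 and 40.7 CPM at day 14. Neither overlapped between days. Pde1b, a phosphodiesterase, differed by -2.04 in cGAS-KO. The rise was Eya1 (0.92), named after its value was seen.

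Other neuronal lists had medians nearer to 0. Of 50 pan-neuronal and synaptic genes 29 were lower and 3 higher in the pooled comparison, beside 22.4% and 24.9% of all genes. The median was -0.56. Over all 6 groups 14 were lower and 9 higher, beside 26.6% and 25.1% of all genes. Gad1, which makes GABA, measured 58.3, 73.5, 84.5 and 114 CPM at day 7 and 148, 194, 200.1 and 207 CPM at day 14. Gria2, a subunit of AMPA receptors, measured 153, 218, 167 and 172 CPM at day 7 and 437, 464, 454 and 389 CPM at day 14. Gria3, another subunit, differed by -1.01. The rises, named after their values were seen, were Nefm (1.08), Nefh (0.73) and Thy1 (0.43), of which both Nef genes encode axonal neurofilaments. The call of Nefh was lost with 1 library left out (adjusted p = 0.0647 and 0.0561 without 7d_cGAS-KO replicate 2 and 14d_cGAS-KO replicate 1).

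Of 33 cortical and hippocampal genes 14 were lower and 8 higher in the pooled comparison, beside 22.4% and 24.9% of all genes. The median was -0.46. In cGAS-KO 10 were lower and 7 higher, beside 13.4% and 17% of all genes, with a median of 0.03. In 7d_STING-KO against 14d_WT 15 were lower and 4 higher, beside 14.6% and 17.6% of all genes, with a median of -0.7. Over all 6 groups 10 were lower and 14 higher, beside 26.6% and 25.1% of all genes, with a median of 0.32. Crym, which binds thyroid hormone and is also expressed in striatum, measured 25.6, 16.3, 7.57 and 15.4 CPM at day 7 and 103, 89.2, 159 and 161 CPM at day 14. Etv1 and Tle4 differed by -1.04 and -0.88. The rises, named after their values were seen, were Dsp (3.25), Ccn2 (1.36), Emx1 (1.07), Rasgrf2 (1.01), Sla (0.87), Neurod1 (0.82), Cux2 (0.66) and Cux1 (0.48). The call rested on single libraries for Rasgrf2 (adjusted p = 0.0647, 0.0644, 0.0555, 0.0692 and 0.073 without 7d_cGAS-KO replicate 2, 7d_STING-KO replicate 1, 14d_WT replicate 1, 14d_WT replicate 2 and 14d_cGAS-KO replicate 2), Neurod1 (adjusted p = 0.0514 and 0.0646 without 14d_WT replicate 1 and 14d_cGAS-KO replicate 1) and Cux2 (adjusted p = 0.0893, 0.127, 0.0921, 0.0652 and 0.0604 without 7d_cGAS-KO replicate 2, 7d_STING-KO replicate 1, 14d_WT replicate 2, 14d_cGAS-KO replicate 1 and 14d_cGAS-KO replicate 2).

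Markers of the thalamus, a neighbouring region, were highest in 1 genotype of day 7. Of 24 thalamic and hypothalamic genes 11 were higher and 2 lower in the pooled comparison, beside 24.9% and 22.4% of all genes. The median was 0.91. Their mean log2 CPM was 2 and 2.06 in 7d_cGAS-KO, 3.39 and 3.13 in 7d_STING-KO and 1.55 to 1.95 at day 14, and 3.87 to 4.23 in 7d_WT, which was left out. Their summed level was 461 to 634 CPM at day 7 and 324 to 403 CPM at day 14, and 3 of the 24 genes had no count in at least 1 day 14 library. Slc17a6, the vesicular glutamate transporter of thalamic neurons, measured 6.7, 3.96, 43.1 and 22.1 CPM at day 7 and 4.79, 6.7, 4.27 and 1.04 CPM at day 14. Shox2, a transcription factor of the thalamus, measured 0.362, 0.309, 19.5 and 9.75 CPM at day 7 and 0.175, 0.165, 0.178 and 0.142 CPM at day 14. Both are named after their values were seen, and their high libraries were those of 7d_STING-KO. Zic1, which meninges express too, was instead highest in 7d_cGAS-KO, at 169.8, 90, 62.1 and 71.5 CPM at day 7 and 27.5, 39, 24.6 and 15.5 CPM at day 14. Prkcd, a kinase of thalamic neurons, measured 139, 148, 128 and 178 CPM at day 7 and 61.7, 82.4, 53.3 and 68.4 CPM at day 14. Unlike Slc17a6 and Shox2, it did not separate the day 7 genotypes. Calb2, calretinin, measured 10.8, 5.87, 41.8 and 24.3 CPM at day 7 and 3.97, 6.2, 6.32 and 3.31 CPM at day 14, and Necab1 was lower, at -1.16. With the 8 libraries as 2 groups of 4 by day, 5 of the 24 genes were higher. The part of thalamic tissue in the neuronal results was not tested.

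Of 19 interneuron genes 11 were lower (7 without 14d_WT replicate 2) and 3 higher in the pooled comparison. Slc5a7, the choline transporter, measured 1.81, 3.55, 1.32 and 4.24 CPM at day 7 and 9.23, 8.67, 12.4 and 13.2 CPM at day 14. Chat, which makes acetylcholine, measured 0.0603, 0.514, 0.402 and 1.85 CPM at day 7 and 3.1, 2.96, 3.83 and 8.94 CPM at day 14. Sst, somatostatin, measured 34.9, 47.3, 21.7 and 15.8 CPM at day 7 and 50.2, 107, 134 and 101 CPM at day 14, and Npy2r differed by -1.30. Of all genes 22.4% were lower and 24.9% higher. The rises of the list were Zic4 (2.08), Calb2 and, named after its value was seen, Pvalb (1.10). The call of Pvalb was lost with 1 library left out (adjusted p = 0.0567 and 0.0516 without 7d_cGAS-KO replicate 1 and 14d_cGAS-KO replicate 1).

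Neuroblast genes were lower at day 7 in both genotypes of that day. Of 26 genes 18 were lower and 1 higher in the pooled comparison, beside 22.4% and 24.9% of all genes. The median was -1.63, with component medians of -1.27 and -1.66. The mean log2 CPM was 3.17 to 3.78 at day 7 and 4.9 to 5.35 at day 14, with 3.24 and 3.31 in 7d_WT and 4.32 and 4.35 in 14d_STING-KO. Dcx, doublecortin of migrating neuroblasts, measured 14.8, 18.1, 15 and 12.2 CPM at day 7 and 91.2, 97.7, 93.5 and 62.1 CPM at day 14, a pooled difference of -2.52 ± 0.15, adjusted p = 5.86e-07. Dlx1, a homeobox gene that specifies GABAergic neurons, measured 10.4, 9.57, 3.44 and 4.45 CPM at day 7 and 70.8, 62.2, 74.7 and 62.9 CPM at day 14, a difference of -3.43 ± 0.16, adjusted p = 2.11e-07. Its partner Dlx2 measured 2.59, 2.21, 1.61 and 1.91 CPM at day 7 and 24.1, 17.8, 29.6 and 27.4 CPM at day 14, a difference of -3.57 ± 0.17, adjusted p = 2.11e-07. The day 7 range of each lay far below its day 14 range, and for Dlx1 and Dlx2 days without overlap were a condition of selection. Insm1, a zinc-finger factor of newborn neurons, measured 2.41, 3.91, 3.15 and 3.28 CPM at day 7 and 14.7, 14, 20.8 and 19.2 CPM at day 14. The rise was Pbk (1.28), a mitotic kinase, named after its value was seen.

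Choroid plexus genes had the highest median of the 42 lists. The choroid plexus is the secretory epithelium of the ventricles and no part of the striatum. Of 28 genes 27 were higher at day 7 and none fell, beside 24.9% and 22.4% of all genes. The median was 2.99. In 27 genes all day 7 libraries lay above all day 14 libraries, beside 22.6% of all genes. Averaged over the list, log2 CPM was 4.21 to 5.07 in the 4 day 7 libraries, 1.23 to 2.15 in the 4 day 14 libraries and 0.92 to 2.19 in the libraries left out. The summed level of the 28 genes was 4046 to 6790 CPM at day 7 and 525 to 1088 CPM at day 14, and no member was without a count in any of the 8 libraries. Ttr, transthyretin, the main secreted protein of this epithelium, is named after its value was seen and measured 2376, 4205, 4226 and 2636 CPM at day 7 and 40.4, 351, 259 and 71 CPM at day 14. Tmem72, a membrane protein of this epithelium, measured 24.8, 48.5, 40.2 and 24.2 CPM at day 7 and 0.526, 1.7, 1.51 and 1.18 CPM at day 14, a pooled difference of 4.79 ± 0.35, adjusted p = 3.72e-06. Both showed no overlap between days. Folr1, the folate receptor, measured 18.9, 31.8, 32 and 17.5 CPM at day 7 and 2.22, 2.8, 2.85 and 1.85 CPM at day 14. Lbp, which binds lipopolysaccharide, measured 83.7, 74.7, 101 and 69.5 CPM at day 7 and 18.6, 21.3, 13.8 and 14.9 CPM at day 14. Msx1 and Wfdc2 differed by 2.33 and 3.79. Transcripts of these markers were thus counted in all 8 libraries, at higher levels at day 7. Their source and their part in the other results were not tested.

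Ependymal cells, which bear motile cilia, line the same ventricles. Of 30 genes of motile cilia 1 was higher and 6 lower in the pooled comparison, shares below the 24.9% and 22.4% of all genes. The median was -0.27. Over all 6 groups 25 were lower and 1 higher, beside 26.6% and 25.1% of all genes. In 7d_WT the mean log2 CPM of the list was 1.81 and 0.83 against 3.01 to 3.73 in the 8 libraries. Cfap54, Dnah1 and Dnah5 of the ciliary axoneme differed by -0.87 ± 0.16, adjusted p = 0.001, by -0.71 ± 0.16, adjusted p = 0.00375 and by -0.93 ± 0.19, adjusted p = 0.00228. Tppp3 and Rsph1 differed by -0.49 and 1.15, and the call of Tppp3 was lost with 1 library left out (adjusted p = 0.0537 without 14d_WT replicate 1).

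**Figure D4:**
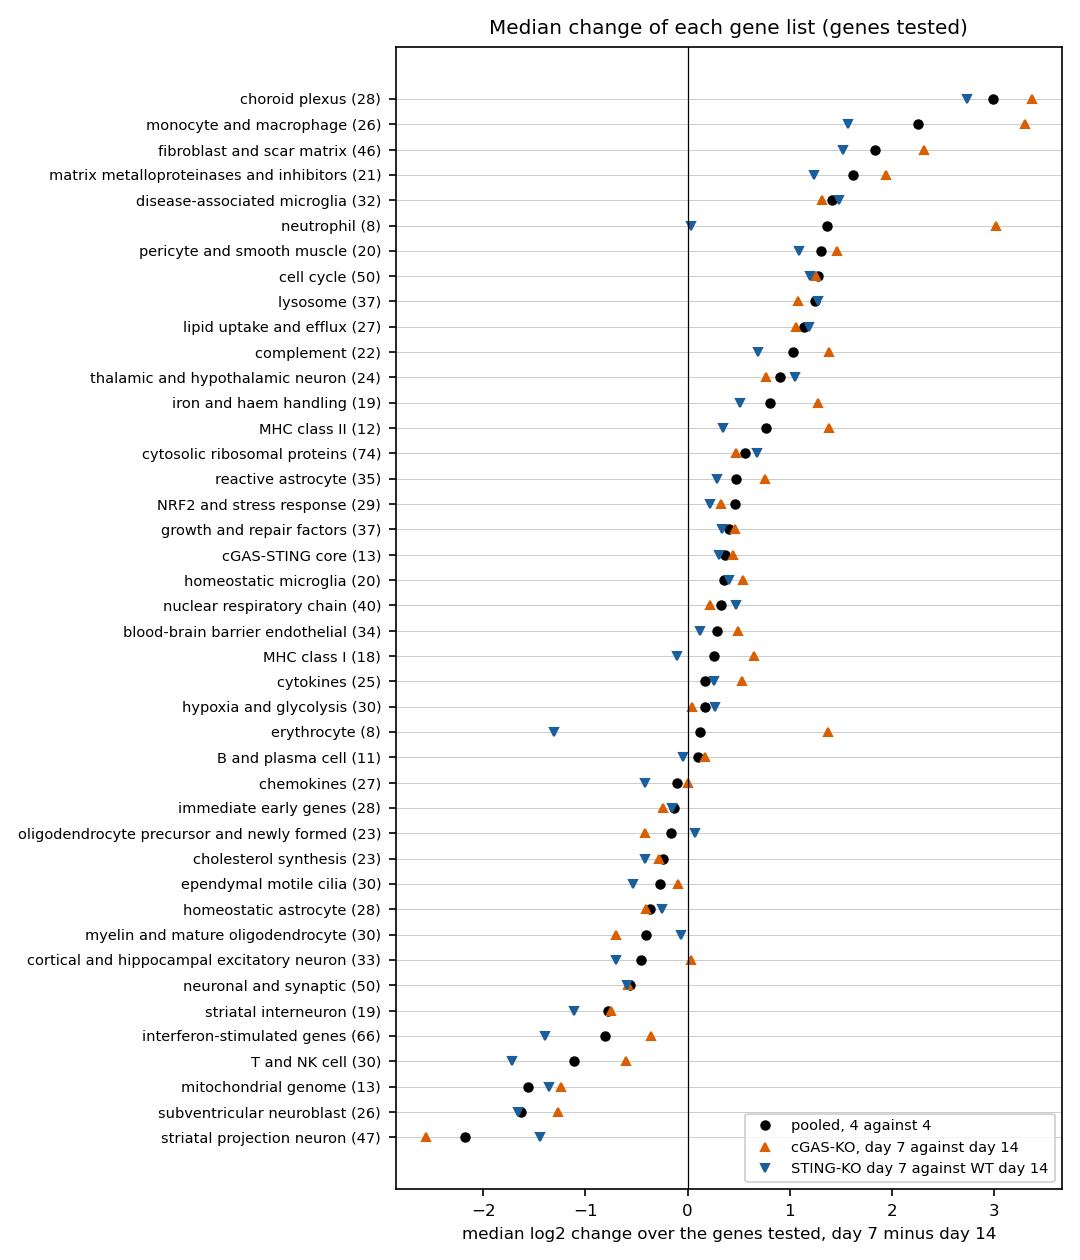
Median log2 change (day 7 minus day 14) of each of the 42 gene lists over its genes tested, whose number stands in brackets, in the pooled comparison (circles) and in its components (triangles). Choroid plexus genes had the highest pooled median, 2.99, and striatal projection neuron genes the lowest, -2.18.

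Transcripts of the mitochondrial genome and nuclear genes of the respiratory chain moved in opposite directions. Of 13 mitochondrial genes 11 were lower at day 7 and none higher, beside 22.4% and 24.9% of all genes. The median was -1.56. Transcripts of the mitochondrial genome made up 3.13 to 3.63% of counts at day 7 and 6.86 to 9.96% at day 14. In the groups left out they made up 4.02 and 4.14% in 7d_WT and 4.01 and 6.16% in 14d_STING-KO. The list's mean log2 CPM in 14d_STING-KO replicate 1 was 7.13, below the 7.66 to 8.06 of the day 7 libraries. mt-Co1, a subunit of complex IV, measured 12241, 11988, 12309 and 11582 CPM at day 7 and 33696, 21948, 27262 and 27381 CPM at day 14, a pooled difference of -1.20 ± 0.18, adjusted p = 0.000281. mt-Nd2 and mt-Nd5, subunits of complex I, and mt-Cytb of complex III differed by -1.68, -1.49 and -1.09. mt-Co3 stood apart and varied widely at day 14, at 40, 35.1, 31 and 29.6 CPM at day 7 and 422, 261, 87.3 and 36 CPM at day 14.

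Of 40 nuclear respiratory chain genes 22 were higher and none lower, beside 24.9% and 22.4% of all genes. The median was 0.33. Ndufb8, a subunit of complex I, measured 50.5, 47.8, 58 and 63.7 CPM at day 7 and 14.9, 13, 13.7 and 21.4 CPM at day 14, a pooled difference of 1.81 ± 0.14, adjusted p = 3.95e-06. Cox5b and Cox6b1 of complex IV, Cycs, which encodes cytochrome c, and Sdhd of complex II differed by 1.53, 1.23, 0.90 and 0.87. Ndufa1 differed by 1.65 ± 0.23, adjusted p = 0.000166.

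Genes of cytosolic ribosomal proteins were higher at day 7. Of 74 genes 50 were higher and 1 lower, with a median of 0.56, beside 24.9% and 22.4% of all genes. The 74 genes made up 2.42 to 2.73% of counts at day 7 and 1.58 to 2% at day 14. In the groups left out the share was 1.18 and 1.1% in 7d_WT and 1.48 and 1.12% in 14d_STING-KO. The 7d_WT libraries thus lay below the day 14 range. Rpl8 and Rpl15 differed by 0.91 and 1.0. Rps28 measured 163, 166, 196 and 215 CPM at day 7 and 16.9, 17, 22.7 and 45.6 CPM at day 14. Rpl35 measured 206, 182, 220.0 and 248 CPM at day 7 and 46.8, 38, 70.5 and 143 CPM at day 14, where 14d_cGAS-KO replicate 2 stood above the other day 14 libraries. The fall was Rpl26 (-0.47), named after its value was seen, and its call was lost with 1 library left out (adjusted p = 0.0629 and 0.0812 without 14d_WT replicate 1 and 14d_cGAS-KO replicate 1). Without 7d_cGAS-KO replicate 1 or 14d_WT replicate 2 the count of falls was 2. Ribosomal protein genes have many near-identical processed pseudogenes that can share their reads, so their values are uncertain.

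The change also varied with transcript length, and ribosomal and respiratory chain genes are short. Among 15691 protein-coding genes tested, Spearman's rho of the longest annotated transcript with the pooled log2 change was -0.269 across genes, -0.211 in cGAS-KO and -0.297 in the other comparison. Split into 5 groups of equal size, the shortest transcripts, 69 to 1972 bases, had a median pooled change of 0.36, and the longest, from 5234 bases, one of -0.25. Longest transcripts of ribosomal protein genes ran from 383 to 5179 bases and those of respiratory chain genes from 419 to 3171 bases. Neuronal and synaptic genes, with a median change of -0.56, ran from 1453 to 24060 bases. The part of length in those lists was not tested.

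**Figure D5:**
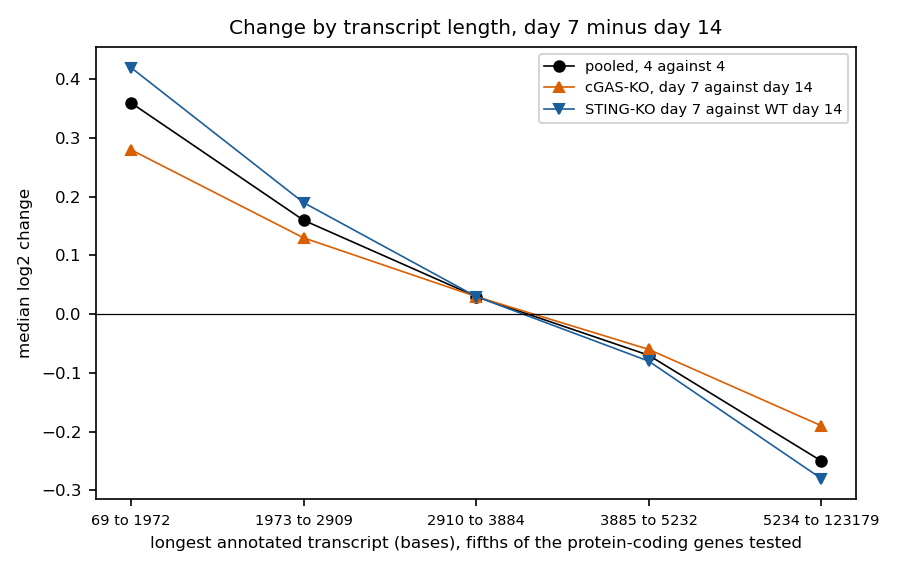
Median log2 change (day 7 minus day 14, y axis) of the protein-coding genes tested in 5 groups of equal size by the length of the longest annotated transcript (x axis, bases), in the pooled comparison (circles) and its components (triangles). The medians fall from 0.36 in the shortest group to -0.25 in the longest in the pooled comparison, and in the same order in both components.

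Genes of haem and iron handling were mostly higher at day 7. Of 19 genes 11 were higher and 3 lower in the pooled comparison, beside 24.9% and 22.4% of all genes. The median was 0.81. Hmox1, haem oxygenase 1, which macrophages make, measured 135, 124, 199 and 146 CPM at day 7 and 32.4, 25.7, 17.8 and 23.9 CPM at day 14, a cGAS-KO difference of 2.63 ± 0.24, adjusted p = 3.75e-05. Blvra, which reduces the biliverdin it makes, measured 29.7, 36.4, 43.5 and 38.9 CPM at day 7 and 14.8, 15.6, 13.8 and 13.5 CPM at day 14. Blvrb, a second reductase, measured 35.3, 32.8, 28.2 and 28.8 CPM at day 7 and 11.6, 8.07, 5.87 and 9.79 CPM at day 14. None of the 3 overlapped between days. Lrp1, an endocytic receptor that takes up haem bound to hemopexin, differed by 1.33 ± 0.21, adjusted p = 0.00079 in cGAS-KO. The falls, named after their values were seen, were Fth1 (-0.63), Tfrc (-0.38) and Ireb2 (-0.38). Red cell transcripts separated the day 7 groups rather than the days. Hbb-bs measured 421, 341, 22 and 38.6 CPM at day 7 and 135, 38.3, 58.4 and 112 CPM at day 14. Hbb-bt measured 45.5, 45, 2.06 and 5.19 CPM at day 7 and 8.82, 2.74, 3.83 and 7.81 CPM at day 14. Alas2, which starts haem synthesis in red cells, measured 10.3, 11, 1.15 and 1.11 CPM at day 7 and 6.31, 3.13, 5.96 and 3.78 CPM at day 14. The haemoglobin beta genes are near copies and share reads, and the pooled call of Hbb-bt was lost with 1 library left out (adjusted p = 0.0654, 0.0618, 0.247, 0.0919 and 0.105 without 7d_cGAS-KO replicate 1, 7d_cGAS-KO replicate 2, 7d_STING-KO replicate 2, 14d_WT replicate 2 and 14d_cGAS-KO replicate 1).

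Stress-response genes rose in part. Of 29 genes 14 were higher and 7 lower, beside 24.9% and 22.4% of all genes, with a median of 0.46. The share of falls was thus near that of all genes. Gdf15, a secreted stress signal, measured 8.02, 9.21, 15.5 and 15.4 CPM at day 7 and 1.11, 2.25, 0.578 and 0.852 CPM at day 14, a pooled difference of 3.39 ± 0.29, adjusted p = 5.63e-06. Txn1, thioredoxin, measured 118, 96.7, 118 and 122 CPM at day 7 and 44.1, 32.7, 36.4 and 38 CPM at day 14. Osgin1, an NRF2 target, measured 14.3, 7.67, 7.4 and 7.63 CPM at day 7 and 4.03, 2.03, 1.56 and 1.66 CPM at day 14. All 3 were higher in every day 7 library. Slc7a11, the cystine importer that feeds glutathione synthesis, measured 359, 166, 109 and 67.2 CPM at day 7 and 70.1, 94.3, 36.3 and 28.6 CPM at day 14 and overlapped between days, with cGAS-KO and 7d_STING-KO against 14d_WT differences of 3.02 and 0.10.

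Among 30 genes of hypoxia and glycolysis 12 were higher and 6 lower, beside 24.9% and 22.4% of all genes. The median was 0.17. The glycolytic enzyme Pgk1 measured 233, 234, 253 and 278 CPM at day 7 and 159, 157, 138 and 151 CPM at day 14. Ldha, lactate dehydrogenase A, measured 289, 261, 260.4 and 298 CPM at day 7 and 198, 198, 156 and 165 CPM at day 14. Neither overlapped between days. Pkm, pyruvate kinase, differed by 0.94 ± 0.12, adjusted p = 8.78e-05, and Gapdh, which has many pseudogenes, by 1.48 ± 0.10, adjusted p = 1.97e-06. Ndrg1, induced by hypoxia and also a gene of oligodendrocytes, was lower, at 169, 136, 109 and 156 CPM at day 7 and 219.8, 229, 263 and 271 CPM at day 14. Of 23 cholesterol synthesis genes 4 were higher and 10 lower, and the falls numbered 4 without 7d_cGAS-KO replicate 1, 2 without 7d_STING-KO replicate 1, 6 without 7d_STING-KO replicate 2, 2 without 14d_WT replicate 2 and 2 without 14d_cGAS-KO replicate 1. Fdft1, squalene synthase, measured 28.8, 29.6, 28.6 and 31.8 CPM at day 7 and 43.6, 58.6, 61.9 and 47 CPM at day 14. Msmo1, a methylsterol oxidase, measured 30.6, 30.3, 32.2 and 35.6 CPM at day 7 and 47.3, 64, 57.1 and 46.4 CPM at day 14. Rises of the cholesterol list stand beside 24.9% of all genes and falls beside 22.4%. The rises were Pmvk (1.07), Mvd (0.82), Ebp (0.97) and, named after its value was seen, Mvk (0.52). Of these, Pmvk, Mvd and Mvk act in the mevalonate steps. The call of Mvk was lost with 1 library left out (adjusted p = 0.0572 without 7d_STING-KO replicate 2).

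Of 28 immediate early genes, which are induced within minutes of a stimulus, 8 were higher and 11 lower in the pooled comparison, beside 24.9% and 22.4% of all genes, with a median of -0.13. Nr4a1, an activity-induced nuclear receptor, measured 24.5, 30.1, 15.5 and 22.5 CPM at day 7 and 34.1, 80.2, 77.9 and 126 CPM at day 14. Homer1, a synaptic scaffold, measured 29.1, 50.2, 29.1 and 21.8 CPM at day 7 and 67.9, 134, 103 and 107 CPM at day 14. Nptx2 and Egr4, both induced by activity, differed by -1.05 and -1.83, and Egr4 overlapped between days. Among the rises, Atf3, a stress-induced factor of injured neurons and macrophages, measured 37.2, 58.8, 90.3 and 80.6 CPM at day 7 and 22.4, 26.6, 15.1 and 14.8 CPM at day 14, and Dusp6, a phosphatase of ERK, differed by 1.04 ± 0.17, adjusted p = 0.000514.

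Of 37 growth and repair factors 15 were higher and 6 lower, beside 24.9% and 22.4% of all genes. The median was 0.41. Igf2, which meninges and choroid plexus secrete, measured 21.4, 21.1, 13.2 and 6.25 CPM at day 7 and 0.935, 2.85, 0.578 and 1.23 CPM at day 14. Bmp7, made by the same tissues, measured 92.2, 41, 25.9 and 24.5 CPM at day 7 and 9.11, 11.1, 8.99 and 10.5 CPM at day 14. For both, the 7d_cGAS-KO libraries were the highest and the 7d_STING-KO libraries the next.

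The test of the difference between the component comparisons called few genes, which does not show that the other genes changed alike. Its recovery on simulated counts was not measured. Of the 8 genes called in the test of that difference, the 7 with an average log2 CPM of at least 1 are named. F13a1, Clec4d and Mmp8, described above, belong to the immune lists, so they are left without a test here: values of such genes chose the groups. Gjb2, a connexin of meninges, measured 119.6, 78.1, 23.7 and 23.4 CPM at day 7 and 16.4, 14.9, 9.57 and 9.7 CPM at day 14, a difference between the comparisons of -2.76 ± 0.33, adjusted p = 0.0288, and Gm36161, a gene model, one of -4.89 ± 0.67, adjusted p = 0.043. Agt, angiotensinogen, which astrocytes make in a regional pattern, measured 12.4, 22.5, 152 and 75.7 CPM at day 7 and 6.08, 7.85, 14.9 and 19.4 CPM at day 14. The 7d_STING-KO libraries stood above the rest. Its difference between the comparisons was 3.99 ± 0.52, adjusted p = 0.0418. Tunar, a transcript of neural lineages, measured 2.23, 3.65, 9.98 and 10.5 CPM at day 7 and 1.99, 3.35, 5.16 and 5.63 CPM at day 14, a difference of 2.79 ± 0.41, adjusted p = 0.0481. Leaving out 1 library ended the call for each of these 4 genes, and the counts with each library left out ran from 0 to 15 genes with the more positive change in 7d_STING-KO against 14d_WT and from 0 to 70 with the more negative one.

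Some abundant genes of glia and metabolism showed no difference between days. Gfap, the filament of reactive astrocytes, measured 3132, 2533, 2671 and 5339.6 CPM at day 7 and 5018, 2279.8, 3652 and 3232 CPM at day 14, a pooled difference of -0.07 ± 0.34, adjusted p = 0.876. Atp1b2 and Gpi1 differed by -0.0 ± 0.14, adjusted p = 0.986 and by 0.06 ± 0.11, adjusted p = 0.704. The sign of Gfap and Atp1b2 turned with at least 2 of the 8 libraries left out in turn, and that of Gpi1 with 1. A p that misses the threshold does not show that levels were equal.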

How the data were processed

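Polyadenylated RNA of mouse striatum was sequenced as paired reads. Per the submitters' processing notes, reads were aligned with HISAT2 to mm10 and counted with featureCounts, and the deposited values are raw counts per gene for each library. Versions, the annotation and the strand setting are not given in the sources used here, so reads of overlapping and antisense genes may be shared. Of 54532 gene IDs, 54495 took a symbol from GENCODE M21 (GRCm38). Library totals were 15956242 to 22126213 counts, and no pair of libraries held identical values.

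From the counts as deposited, edgeR 4.0.16 (R 4.3.3) was fitted once to all 12 libraries with the 6 groups of the labels as 1 factor, TMM scaling, a filter on low counts (filterByExpr, minimum count 10, minimum total 15; 19822 genes) and a robust quasi-likelihood test with 6 residual degrees of freedom. The biological coefficient of variation was 0.194. Comparisons were contrasts of group means, with p-values adjusted by the Benjamini-Hochberg method over all genes tested and a threshold of 0.05. The mean log2 CPM of a list used a prior count of 2. No list was tested as a set.

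The members, the 42 gene lists (15 of them of immune genes) and the tests were chosen with earlier results of these data known. The genes named are Cgas and Tmem173, the 10 largest rises and falls among protein-coding genes with an average log2 CPM of at least 1 whose days did not overlap and that were called alike in both component comparisons, up to 4 genes per list with the smallest p, the largest of the differences between the components, and 5 abundant genes without a difference. Others are said to be named after their values were seen. Some genes that this rule names are not reported here. No fold was printed against a group without a count.

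On simulated counts for the pooled comparison, with 100 genes changed 2-fold and 100 changed 4-fold among 19215, 78% and 97% were recovered, with 12 of 187 calls false. For cGAS-KO the shares were 41% and 92% (10 of 143 false), and for 7d_STING-KO against 14d_WT 41% and 83% (6 of 130 false). The changed genes all had a mean of at least 1 CPM. They were far fewer than the genes called in the data, which were 47.3%, 30.4% and 32.1% in these comparisons. The shares recovered and the false calls therefore may not carry over to the data, least of all for genes of few counts. Alternatives were DESeq2 1.42.0 size factors and test, no filter, or one that asked 2 libraries for 1 CPM and a count of 10, the legacy fit, fits to the libraries compared, 2 groups of 4 by day, totals without TMM, a replicate block, and leaving out each library. Promoters are RefSeq windows of GRCm38.p6.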

Additional observations from a re-analysis of the deposited data

Results flagged for a closer look

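For 84 means of gene lists over 4 libraries, 1 library was compared with the other 3 by Dixon's ratio at its 95% critical value, which chance passes in about 1 of 20 groups, and 6 means passed. The mean log2 CPM of interferon-stimulated genes was 3.91 in 7d_STING-KO replicate 1, the lowest at day 7, against 4.19 in the next library. That of fibroblast and scar matrix genes was 4.5 in 14d_WT replicate 2, the highest at day 14, against 3.97. Reactive astrocyte genes stood at 5.34 in 14d_WT replicate 1 against 4.56 in the next library, and homeostatic astrocyte genes at 7.78 against 7.54 in the same library. Genes of oligodendrocyte precursors stood at 6.49 in 7d_STING-KO replicate 2 against 6.04, and genes of hypoxia and glycolysis at 6.57 against 6.4, the highest values of day 7.

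The change between days differed between 7d_STING-KO against 14d_WT and cGAS-KO for 4 named genes outside the immune lists, by the test of that difference (edgeR's quasi-likelihood test, adjusted over all genes). The difference, the former minus the latter on the log2 scale, was 3.99 for Agt (adjusted p = 0.0418), 2.79 for Tunar (adjusted p = 0.0481), -2.76 for Gjb2 (adjusted p = 0.0288) and -4.89 for Gm36161 (adjusted p = 0.043). Every one of these calls was lost when some single library was left out.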

How the results depend on the processing

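The pooled counts of 4928 higher and 4443 lower genes stayed within 1.5 times under all 17 alternatives, at 4224 to 4789 and 3455 to 4017 with 1 library left out and at 4560 to 4978 and 3952 to 4636 otherwise, and those over all groups under all 18. With 1 library left out the cGAS-KO counts ran from 1927 to 2689 higher and from 1041 to 2046 lower, and those of 7d_STING-KO against 14d_WT from 1958 to 2449 and from 1522 to 2168. A lone library was then taken to vary like the other groups. The 2 and 6 genes of the difference between the components became 112 and 148 with the DESeq2 Wald test, 11 and 38 with no filter on low counts, 1 and 6 with a stricter filter, 1 and 4 with the legacy fit, 0 and 2 with only the libraries compared, and 0 to 15 and 0 to 70 with 1 library left out. The cause was not tested.

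Same-numbered libraries did not deviate together (correlations of -0.092 to 0.196 over 15 pairs of groups), so the numbers do not pair the libraries. With the replicate number as a block the counts were 4964 and 4502 pooled, 3382 and 2702 in cGAS-KO, 3517 and 2931 in the other comparison, and 0 and 4 for the difference.

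For the genes named with a test, 3754 of 3971 values over the alternatives kept their direction and their side of the threshold, 201 were no longer called, 5 became called and 11 turned sign. The turned signs were in genes that were not called. Alas2 was at 0.28 and Atp1b2 at 0.01 with 8 libraries as 2 groups of 4 by day, and Atp1b2 was at 0.01 with no filter. With 1 library left out Atp1b2 ran from -0.12 to 0.09, Gfap from -0.37 to 0.27, Gpi1 from -0.01 to 0.15 and Isg15 in cGAS-KO from -0.25 to 1.34. The pooled median of monocyte and macrophage genes, 2.26, was 2.62 with no filter, 1.91 with a stricter filter and 1.9 by day, and that of neutrophil genes, 1.37, was 1.68 and 0.64. Depth limits genes of few counts, among them neutrophil and lymphocyte genes.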
